A study of Mus musculus with 10 samples.

Results

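The nuclear genes of the mitochondrial respiratory chain and ATP synthase were compared between deprived and non-deprived visual cortex of young mice. All probe sets with a single gene symbol that starts with Nduf, Sdh (a to d), Uqcr, Cox and a digit, or Atp5 were taken, together with Cycs and Cyc1. This gave 107 of 12422 probe sets and 78 of 8251 named genes, and the probe set with the highest mean signal over all arrays stood for each gene. The samples were visual cortex of wild-type C57Bl6 mice that had lost one eye at postnatal day 14 and were killed 4 days later, at postnatal day 18. In the 5 deprived samples the cortex lay contralateral to the removed eye, and in the 5 non-deprived samples ipsilateral to it. In the mouse most optic nerve fibres cross to the other side, which leaves the contralateral cortex with little input from an eye. Both groups came from enucleated mice, so no intact animal served as control. The labels name 4 mice and pooled samples without saying how animals were divided over the 10 samples, so the p-values measure only how these samples vary, which may partly be technical.

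The respiratory chain passes electrons from NADH (complex I) or succinate (complex II) through complex III and cytochrome c to oxygen at complex IV, and the proton gradient built on the way drives ATP synthase, complex V. Its subunits come from both the nuclear and the mitochondrial genome, and only nuclear genes were analysed here. Neurons spend much of their ATP on restoring ion gradients after activity, and staining for cytochrome oxidase, complex IV, is a classical marker of lasting activity in visual cortex that weakens after loss of eye input. The design asks whether transcripts of the chain also differ with the loss of the main eye's input.

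Nuclear respiratory factor 1 (NRF-1) is a textbook regulator of chain genes, and promoters that hold its binding letters are shown as examples of regulatory sequence in these genes. A RefSeq promoter (GRCm38.p6, from 250 bases before to 50 bases after the gene's start) was found for 62 of the 78 genes. The NRF-1 core GCATGCGC, or GCGCATGC on the other strand, was present in 11 of the 62 genes (17.7%), in 348 of 6577 genes on the array (5.29%) and in 824 of 27025 genes in the RefSeq table (3.05%). In the windows of 60 bases below, read 5′ to 3′ on the gene's strand, capitals mark the core, and the run of 10 capitals holds it on both strands, overlapping.
Atp5g2: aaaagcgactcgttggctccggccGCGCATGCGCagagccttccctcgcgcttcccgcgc
Atp5k: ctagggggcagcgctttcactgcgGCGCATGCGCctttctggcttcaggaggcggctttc
Cox6a1: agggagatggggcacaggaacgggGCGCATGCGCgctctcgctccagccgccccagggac
Sdhb: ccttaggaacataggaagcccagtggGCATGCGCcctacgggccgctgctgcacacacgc
Cycs: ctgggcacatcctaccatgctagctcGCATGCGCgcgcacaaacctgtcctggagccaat
These lie at chr15:102671054-102671113 (minus strand), chr5:108434414-108434473 (minus), chr5:115349085-115349144 (minus), chr4:140961191-140961250 (plus) and chr6:50566596-50566655 (minus). The 5 genes come from complex V, complex IV, complex II and cytochrome c, and their differences between the groups, given below, lay on both sides of 0. The 11 tested genes with these letters had a median log2 difference of 0.069, and the 41 matched tested genes without them 0.070. A match of letters is a description and not a binding site.

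No gene of the chain or ATP synthase passed the test. Of the 78 genes, 68 were bright enough to be tested in limma, and the 10 others were left out for low signal. None of the 68 reached an adjusted p under 0.05 (limma with Benjamini-Hochberg adjustment over 7453 probe sets), where 0% of all tested probe sets did. At an unadjusted p under 0.05, 1 gene (Uqcrb) was higher in deprived cortex, against a background of 2.43% of all tested probe sets, and 0 were lower, against 2.36% (4.79% in either direction). No gene had all 5 deprived arrays below all 5 non-deprived arrays, which held for 0.47% of all tested probe sets, or all above, which held for 0.483%. The smallest adjusted p of the 68 in limma was 0.992.

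The differences were small and lay mostly above 0. Values are differences of log2(signal + 16), deprived minus non-deprived, each with its standard error. They ran from -0.20 for Cox4i1 (-0.022 without deprived replicate 5) to 0.32 for Uqcr11 (0.16 without deprived replicate 4), and 58 of the 68 genes lay within 0.2 of 0 (85.3%, against 83.5% of all tested probe sets). Above 0 lay 52 genes and below it 16, with a median of 0.069, against a median of 0.0066 over all tested probe sets, of which 3875 lay above 0 and 3578 below. The median depended on single arrays: it was 0.0051 with 36 genes above 0 without deprived replicate 2, 0.026 with 40 without deprived replicate 4 and 0.035 with 39 without non-deprived replicate 3. It was 0.11 with 56 genes above 0 without deprived replicate 1 and 0.118 with 55 without deprived replicate 3. Scaling each array to its median gave 0.035 with 41 genes above 0, and lowered the median over all tested probe sets to -0.027. In bulk tissue, fewer cells of a type and less RNA per cell cannot be told apart.

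**Figure D1:**
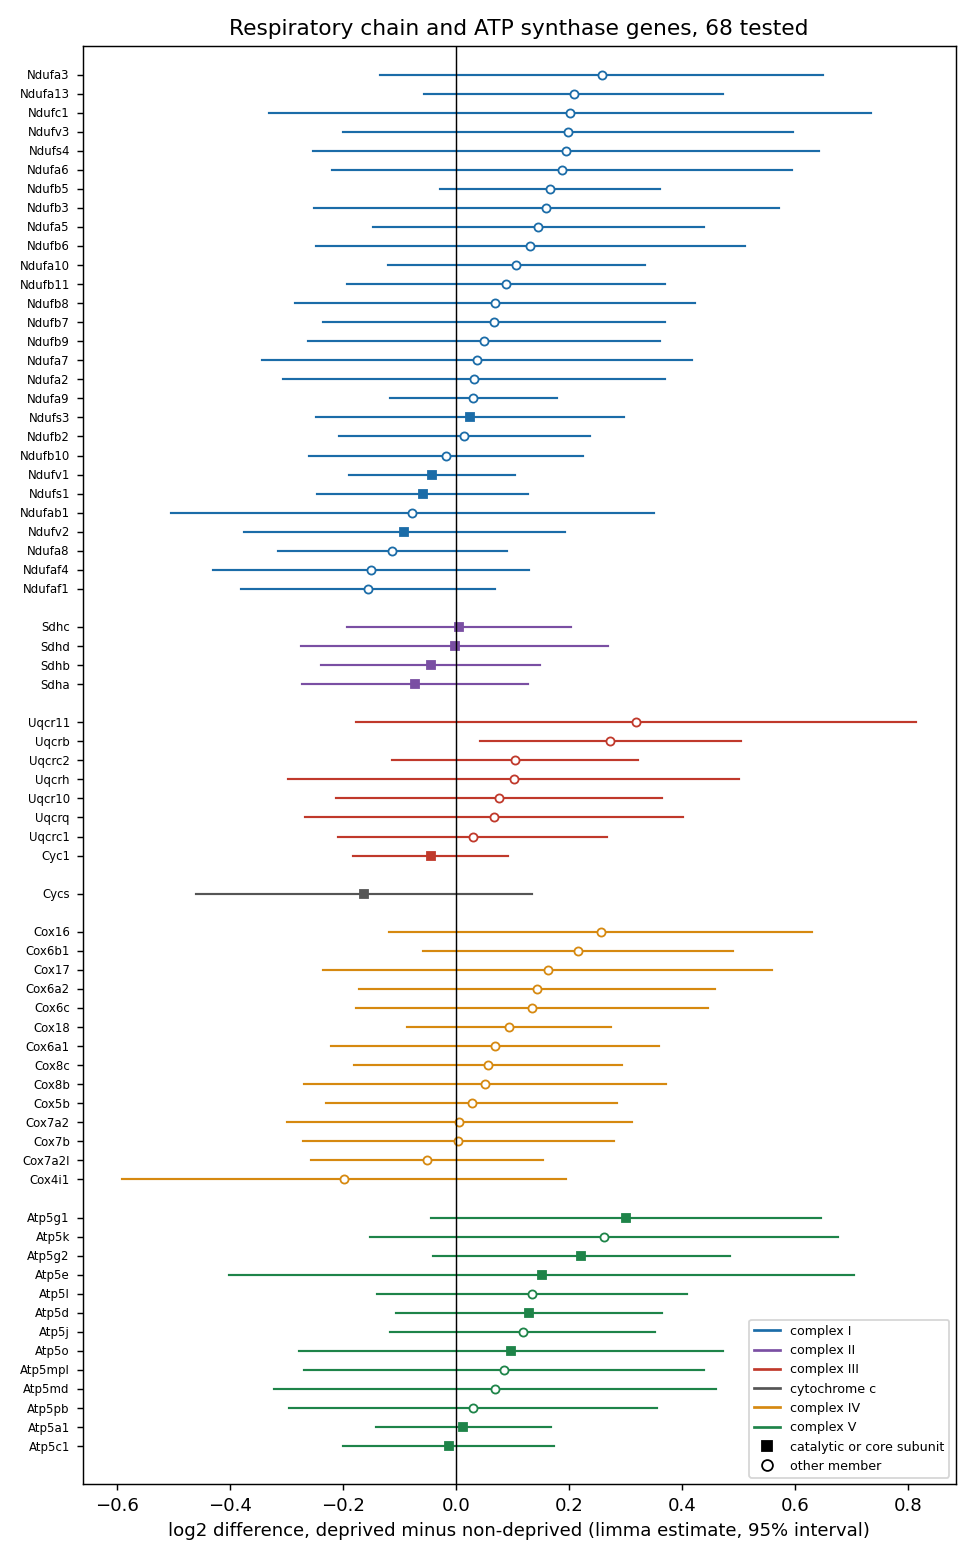
Log2 difference between deprived and non-deprived cortex (x axis) for each of the 68 tested genes (y axis), grouped and coloured by complex; points are limma estimates (filled squares for core subunits) and bars their 95% confidence intervals. Most points lie within 0.2 of 0, 52 lie to the right of 0, and Uqcrb is the gene whose unadjusted p was under 0.05.

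Complex I takes electrons from NADH, and 28 of its 31 genes on the array were tested. In none of them did the 2 groups separate: 20 lay above 0 and 8 below, with a median of 0.059. That median ran from 0.0061 without deprived replicate 4 to 0.148 without deprived replicate 3, and was 0.0074 without deprived replicate 2, 0.019 without non-deprived replicate 3 and 0.114 without deprived replicate 1. The estimates for its electron-carrying core lay near 0. Ndufv1, the subunit that binds NADH and the flavin, had signals of 4878, 4512, 4784, 5020 and 5068 in deprived replicates 1 to 5 and 5097, 4637, 4801, 5141 and 5322 in non-deprived replicates 1 to 5. The groups overlap almost completely, and the difference was -0.043 ± 0.068 (SE), with a 95% interval from -0.19 to 0.10. Ndufs1, which carries iron-sulphur clusters, had 2353, 1790, 1891, 2047 and 1793 in deprived and 1946, 2072, 2204, 1994 and 2028 in non-deprived cortex. Deprived replicate 1 was the highest of all 10 arrays and 3 of the deprived arrays were lower than every non-deprived array (difference -0.059 ± 0.087).

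Accessory subunits of complex I surround the core and stabilise it, and some differed more from array to array than Ndufv1 and Ndufs1. The SD over all arrays (log2 scale) was 0.073 for Ndufv1 and 0.122 for Ndufs1, but 0.218 and 0.234 for the core genes Ndufs3 and Ndufv2. Among accessory genes it was 0.163 for Ndufb5, 0.228 for Ndufa13, 0.362 for Ndufa3 and 0.061 for Ndufa9, so the roles overlapped. Ndufb5, a membrane-arm subunit, had 5650, 7792, 6570, 7320 and 6722 in deprived and 6586, 6212, 5365, 6009 and 6057 in non-deprived cortex. In the deprived group 3 arrays lay above all non-deprived arrays and the other two among them (6811 ± 812 against 6046 ± 443, SD, n = 5 each; difference 0.17 ± 0.091, limma adjusted p = 0.992). Ndufa13, also known as GRIM-19, had 772, 1086, 777, 1196 and 943 in deprived and 792, 731, 903, 806 and 836 in non-deprived cortex. The same held for its deprived arrays, with replicates 2, 4 and 5 above all non-deprived ones (0.21 ± 0.12, and 0.12 without deprived replicate 4). Ndufa3 had 1861, 3253, 1681, 2912 and 1992 in deprived and 2566, 1727, 1503, 1963 and 1833 in non-deprived cortex, so deprived replicates 2 and 4 stood above the rest (0.26 ± 0.18, but 0.13 without the first and 0.17 without the second of these). Its dimmer probe set gave 0.27 ± 0.15. Ndufaf1 is an assembly factor and no part of the finished complex. Its values were 408, 333, 480, 437 and 412 in deprived and 456, 471, 498, 425 and 452 in non-deprived cortex, a difference of -0.16 ± 0.10 in overlapping groups that was -0.083 without deprived replicate 2.

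Complex II, succinate dehydrogenase, also belongs to the citric acid cycle and is encoded in the nucleus alone. All 4 of its genes were tested, 1 lay above 0 and 3 below, and their median was -0.023. It turned to 0.032 without deprived replicate 3 and 0.0039 without non-deprived replicate 4, and was -0.071 without deprived replicate 2. Sdha, the catalytic flavoprotein, had 725, 706, 618, 840 and 636 in deprived and 733, 728, 742, 771 and 719 in non-deprived cortex. The deprived arrays spread widely around the narrow non-deprived group (705 ± 88.1 against 738 ± 19.9, SD, n = 5 each), and the difference was -0.073 ± 0.093. Sdhb, the iron-sulphur subunit, had 2450, 2521, 2064, 2354 and 2536 in deprived and 2679, 2097, 2682, 2520 and 2343 in non-deprived cortex, a difference of -0.045 ± 0.090. The membrane anchors gave 0.0061 ± 0.092 for Sdhc and -0.0018 ± 0.13 for Sdhd. The groups overlapped for all 4 genes.

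Complex III passes electrons to cytochrome c. Of its 8 tested genes, 7 lay above 0 and 1 below, with a median of 0.089. That median ran from -0.0041 without deprived replicate 4 to 0.173 without deprived replicate 1. Uqcrb, the ubiquinone-binding protein, was the gene with the smallest p in the chain. Its signals were 1502, 1945, 1415, 1914 and 1608 in deprived and 1342, 1225, 1589, 1287 and 1451 in non-deprived cortex. In the deprived group 3 arrays lay above every non-deprived array and the other two among them. The means were 1677 ± 241 and 1379 ± 144 (SD, n = 5 each), 20.9% higher in deprived cortex on the log2 scale (0.27 ± 0.11, 95% interval 0.043 to 0.50, limma adjusted p = 0.992). Its probe set carries the suffix f, which marks sequences shared within a family, so related transcripts could contribute. Without deprived replicate 2 or 4, or non-deprived replicate 2 or 4, its unadjusted limma p was no longer under 0.05.

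The other genes of complex III showed how strongly single arrays stood out. Uqcr11, a small subunit, had 1202, 2360, 1113, 2696 and 1821 in deprived and 1827, 1127, 1112, 1678 and 1322 in non-deprived cortex. Its highest arrays were deprived replicates 2 and 4 while deprived replicates 1 and 3 lay near the lowest non-deprived arrays (0.32 ± 0.23, and 0.21 without deprived replicate 2). Uqcrc1 and Uqcrc2, the large matrix-side proteins, gave 0.030 ± 0.11 and 0.10 ± 0.10. Cyc1, the haem-bearing cytochrome c1, was among the steadiest genes, at 7442, 7659, 7788, 7755 and 7531 in deprived and 7988, 7746, 8487, 7265 and 7924 in non-deprived cortex. Its difference was -0.044 ± 0.064, and a second probe set of relaxed design gave 0.11 ± 0.12. Cycs, the mobile cytochrome c, had 851, 936, 677, 891 and 626 in deprived and 1017, 814, 730, 1099 and 805 in non-deprived cortex. The groups overlapped (796 ± 137 against 893 ± 157, SD, n = 5 each; -0.16 ± 0.14), and the difference was -0.085 without non-deprived replicate 4 and -0.082 without deprived replicate 5.

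Complex IV, cytochrome oxidase, reduces oxygen, and its catalytic subunits are encoded in mitochondrial DNA and were not analysed here. Of its 20 nuclear genes on the array 14 were tested, 12 lay above 0 and 2 below, and their median was 0.063. That median ran from -0.0023 without deprived replicate 2 to 0.110 without deprived replicate 1. Cox4i1, the regulatory subunit that binds ATP, had 408, 558, 419, 390 and 232 in deprived and 484, 484, 377, 385 and 522 in non-deprived cortex. Deprived cortex held both the highest and the lowest array (-0.20 ± 0.18), and a second probe set pointed the other way (0.13 ± 0.15). The difference was -0.32 without deprived replicate 2. Cox5b had 2640, 3922, 2653, 3703 and 3210 in deprived and 3496, 3037, 2672, 3401 and 3069 in non-deprived cortex, a difference of 0.028 ± 0.12. Cox6a1, the isoform found in most tissues, had 7832, 13999, 9301, 12624 and 9781 in deprived and 9252, 11072, 9020, 10525 and 10181 in non-deprived cortex. In both genes deprived replicates 2 and 4 were the highest arrays and deprived replicate 1 the lowest. The difference for Cox6a1 was 0.069 ± 0.14.

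Cox6b1, which joins the 2 monomers of the enzyme, had 384, 279, 301, 291 and 387 in deprived and 266, 265, 271, 253 and 343 in non-deprived cortex. All deprived arrays lay above 4 of the non-deprived arrays, and non-deprived replicate 5 lay among the deprived ones (0.22 ± 0.13). Isoforms known from heart and skeletal muscle gave 0.14 ± 0.15 for Cox6a2 and 0.052 ± 0.15 for Cox8b. The Cox8b value comes from a probe set of relaxed design (suffix r). Its other probe set, without a suffix, was too dim to test (48.8 against 34.2 in deprived against non-deprived cortex). Cox7a2, the common isoform, gave 0.0062 ± 0.14. Cox7a2l, a factor of supercomplexes that join complex III and IV, gave -0.051 ± 0.096. Cox16 and Cox18, which help to build the enzyme, gave 0.26 ± 0.17 (0.14 without deprived replicate 2) and 0.095 ± 0.084. None of these groups separated. Cox5a, Cox7a1 and Cox8a were too dim to test, with mean signals of 64.9 against 70.6, 29.8 against 26.3 and 40.1 against 33.3 in deprived against non-deprived cortex.

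Complex V uses the proton gradient to make ATP. Of 13 tested genes 12 lay above 0 and 1 below, with a median of 0.118, the highest of the 5 complexes with all arrays. That median ran from 0.037 without non-deprived replicate 3 to 0.186 without deprived replicate 3. The rank depended on single arrays. Complex III stood higher without non-deprived replicate 3 (0.076 against 0.037) and without deprived replicate 1 (0.173 against 0.124). The estimates for the alpha and gamma subunits lay near 0 on their brightest probe sets. Atp5a1, the alpha subunit, had 8897, 9782, 9136, 9857 and 8612 in deprived and 8723, 9484, 9770, 9620 and 8278 in non-deprived cortex, a difference of 0.014 ± 0.072 with a 95% interval from -0.14 to 0.17. Atp5c1, the gamma subunit of the rotating stalk, gave -0.013 ± 0.087, and its dimmer probe set -0.18 ± 0.092.

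The genes for subunit c, the ring turned by protons, had larger differences that still overlapped. Atp5g1 had 229, 179, 234, 216 and 358 in deprived and 191, 207, 179, 166 and 206 in non-deprived cortex. In the deprived group 4 arrays lay above all non-deprived arrays and deprived replicate 2 near the lowest ones, although that array lay above the gene's own mean for 55 of the 68 chain genes. The means were 243 ± 67.6 and 190 ± 17.6 (SD, n = 5 each; 0.30 ± 0.16, limma adjusted p = 0.992), and the difference was 0.16 without deprived replicate 5. A second Atp5g1 probe set had 134, 176, 130, 134 and 135 in deprived and 133, 112, 114, 116 and 105 in non-deprived cortex, again with 4 deprived arrays above all non-deprived ones (0.25 ± 0.15). Atp5g2 had 522, 800, 619, 678 and 730 in deprived and 512, 636, 646, 490 and 563 in non-deprived cortex (0.22 ± 0.12). Both genes encode the same mature protein behind different import sequences. Atp5k, the small subunit e of the membrane part, had 109, 181, 138, 208 and 172 in deprived and 124, 185, 105, 111 and 132 in non-deprived cortex (0.26 ± 0.19, and 0.17 without deprived replicate 4). Atp5d, the delta subunit, gave 0.13 ± 0.11 on its brightest probe set, while its 4 tested probe sets ran from -0.18 to 0.18.

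**Figure D2:**
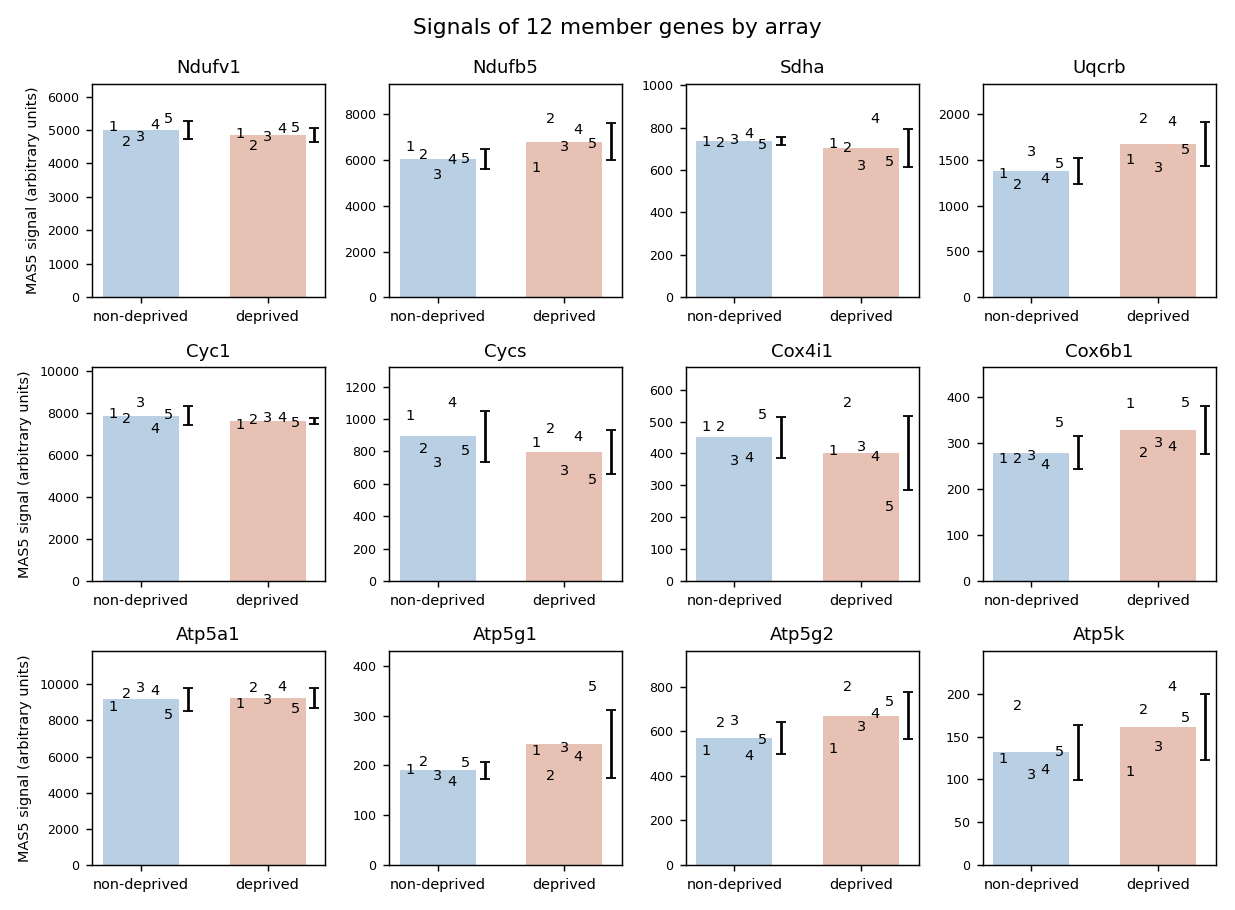
MAS5 signal (y axis, arbitrary units, a separate scale for each gene) in non-deprived and deprived cortex for 12 genes of the chain and ATP synthase; bars are means, error bars standard deviations (n = 5 each), and digits mark each array by its replicate number. The groups overlap in every panel, Ndufv1, Cyc1 and Atp5a1 vary little, and for Uqcrb 3 deprived arrays stand above all non-deprived arrays.

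Chain genes moved together from array to array, and the deprived arrays lay far apart from each other. Each gene's log2 value was taken relative to its own mean over the 10 arrays, and the median over the 68 genes was read for each array. It was -0.15, 0.33, -0.19, 0.22 and 0.043 in deprived replicates 1 to 5 and 0.058, -0.026, -0.15, 0.031 and -0.0077 in non-deprived replicates 1 to 5. Over all tested probe sets the same median stayed between -0.0031 and 0.033. The deprived group thus held the 2 highest and the 2 lowest of the 10 arrays, and non-deprived replicate 3 was nearly as low. Deprived replicate 2 was the highest array for 33 of the 68 genes (48.5%, against 14.6% of all tested probe sets), and deprived replicate 4 for 16 (23.5%, against 10.5%). The lowest array was non-deprived replicate 3 for 16 genes, deprived replicate 1 for 13 and deprived replicate 3 for 12.

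The complexes shared part of this order. Complex I had 0.35 in deprived replicate 2, 0.26 in deprived replicate 4, -0.21 in deprived replicate 3 and -0.24 in non-deprived replicate 3. Complex III had 0.35 in deprived replicate 2 and 0.36 in deprived replicate 4, and complex IV 0.40 and 0.15, with deprived replicate 2 the highest array for 10 of its 14 genes. Complex III departed from the order in the non-deprived group, where it was lowest in replicate 2, at -0.21, and stood at 0.0065 in replicate 3. Complex V stood at 0.29 in deprived replicate 2 and -0.35 in non-deprived replicate 3, which was the lowest array for 7 of its 13 genes. In complex II the highest array was deprived replicate 4, at 0.22, and the lowest deprived replicate 3, at -0.22.

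**Figure D3:**
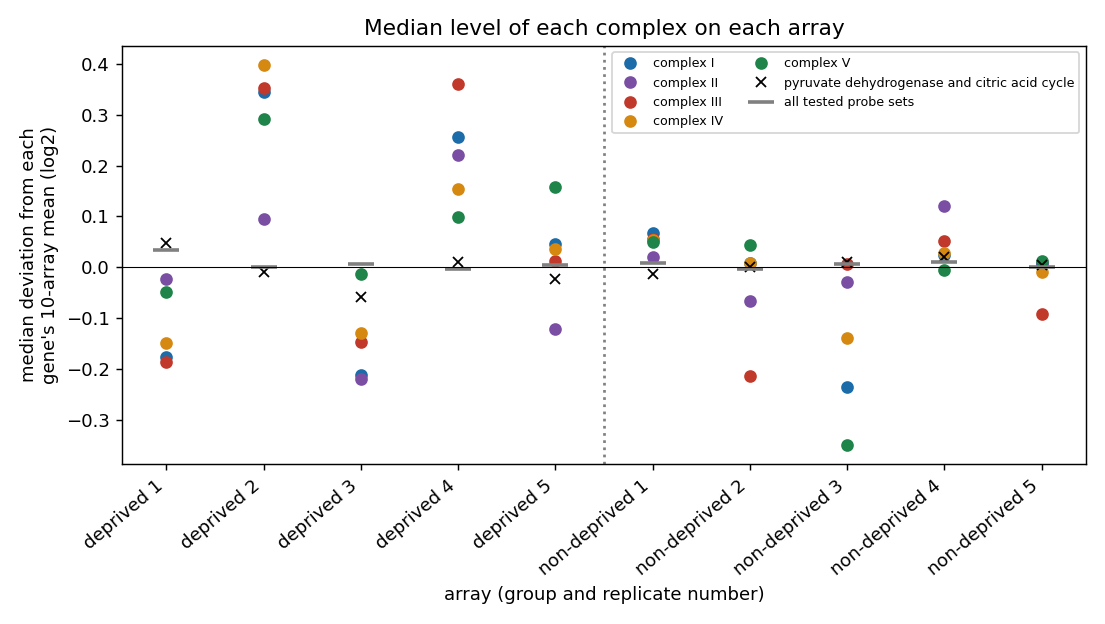
Median log2 deviation of gene groups from each gene's own mean over the 10 arrays (y axis), by array (x axis), with 1 dot per complex, crosses for pyruvate dehydrogenase and citric acid cycle genes and grey bars for all tested probe sets. All 5 complexes lie above 0 in deprived replicates 2 and 4 and below 0 in deprived replicates 1 and 3, complex V is lowest in non-deprived replicate 3 at -0.35, and the crosses and grey bars stay near 0.

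Other values that moved with these arrays were read beside them, and their part in the result was not tested. The 26 tested genes whose symbol starts with Rpl or Rps and a digit, chosen after the chain values were seen, followed a like order. They stood at 0.22 and 0.14 in deprived replicates 2 and 4 and at -0.17 and -0.16 in deprived replicates 1 and 3. In non-deprived replicate 3 they stood at -0.14. Most such symbols name cytosolic ribosomal proteins, but the rule also admits S6 kinase genes (Rps6k). The actin 3′ over 5′ ratio, a measure of RNA integrity on these arrays, was lowest in deprived replicate 2 (1.43) and highest in non-deprived replicate 3 (1.90), and the Gapdh ratio was highest in deprived replicate 2 (1.16). The means of the actin ratio did not separate the groups (1.58 ± 0.121 against 1.58 ± 0.181, SD, n = 5 each; p = 0.96 in a two-sided exact permutation test), nor did those of the Gapdh ratio (1.04 ± 0.0729 against 1.00 ± 0.0748; p = 0.405 in the same exact test). Erythrocyte genes (3 tested) stood at 0.51 in deprived replicate 2 and -0.45 in deprived replicate 3. Oligodendrocyte markers (7 tested) stood at 0.35 in deprived replicate 4 and -0.28 in non-deprived replicate 3, but at -0.043 in deprived replicate 2 and 0.047 in deprived replicate 1. Choroid plexus and meningeal genes (6 tested, without Ttr and Kl, which were too dim) stood at 0.30 in deprived replicate 2. Astrocyte markers stood at 0.25 in the same array, while neuronal markers stayed between -0.11 and 0.11 on all arrays. Protein import genes had 0.12 and 0.15 in deprived replicates 2 and 4, -0.12 in deprived replicate 3 and -0.13 in non-deprived replicate 3, with 0.042 in deprived replicate 1. Assembly factors outside the rule had 0.11 and 0.14 in deprived replicates 2 and 4, -0.096 in deprived replicate 1 and -0.071 in non-deprived replicate 3. The list of pyruvate dehydrogenase and citric acid cycle genes, which also held Mdh1, Pcx and Got2 but no Sdh gene, stayed between -0.058 and 0.048 on all arrays.

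The spread within groups was larger in deprived cortex. The median standard deviation of the 68 genes (log2 scale) was 0.287 over the deprived and 0.166 over the non-deprived arrays, and it was larger in deprived cortex for 55 of 68 genes (80.9%). Over all tested probe sets the medians were 0.201 and 0.174, and it was larger in deprived cortex for 60.8%. Without deprived replicate 2 these shares were 73.5% and 54.7%. The trait was not particular to the chain. In the 26 Rpl and Rps genes the medians were 0.249 and 0.129, and the standard deviation was larger in deprived cortex for 21 (80.8%). The difference in spread was not tested. The ratio of the highest to the lowest array ran from 1.15 to 3.56 among the genes, with a median of 1.69, and passed 2 in 17 of them (25%, against 19.1% of all tested probe sets). Ndufa9, Cyc1, Ndufv1 and Atp5a1 were the steadiest (SD over all 10 arrays 0.061, 0.062, 0.073 and 0.089), and Atp5e, Ndufc1 and Uqcr11 the most variable (0.492, 0.479 and 0.465).

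**Figure D4:**
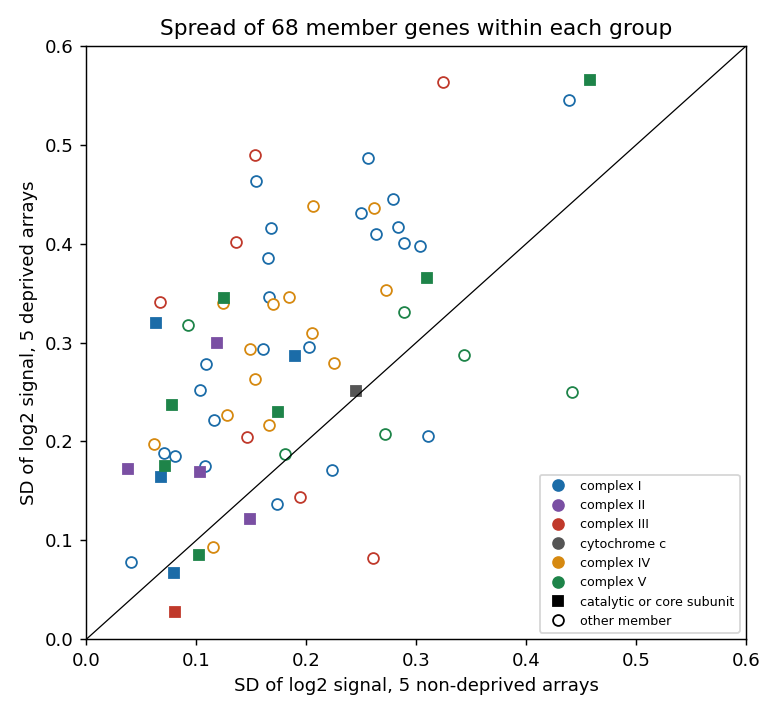
Standard deviation of log2 signal over the 5 deprived arrays (y axis) against that over the 5 non-deprived arrays (x axis), with 1 point per tested gene, coloured by complex, with filled squares for core subunits; the line marks equality. Of the 68 genes, 55 lie above the line.

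Sorting the genes by role gave unequal counts. The core subunits, taken here as those of electron transfer and of the head, central stalk, c ring and OSCP of ATP synthase (17 tested: Ndufs1, Ndufs3, Ndufv1, Ndufv2, the 4 Sdh genes, Cyc1, Cycs and Atp5 alpha, gamma, delta, epsilon, c and OSCP genes) had a median of -0.0018, with 8 above 0. The 45 accessory subunits, with Uqcrc1, Uqcrc2 (historically named core proteins) and the peripheral stalk gene Atp5pb counted among them, had a median of 0.085, with 41 above 0. The accessory genes also varied more from array to array, with a median SD over all arrays of 0.251 against 0.18, and their deviation reached 0.36 in deprived replicate 2, where the core stood at 0.16. The count of accessory genes above 0 was 29 without deprived replicate 2, 33 without deprived replicate 4, 30 without non-deprived replicate 3 and 33 after scaling each array to its median. The core count ran from 4 to 10 when single arrays were left out and was 5 after scaling to the median. That scaling also moved the median over all tested probe sets from 0.0066 to -0.027. The difference between the roles was not tested, and the roles were assigned from general knowledge. The 5 assembly factors named by the rule (Ndufaf1, Ndufaf4, Cox16, Cox17 and Cox18) had 3 above 0 and 2 below.

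Genes that serve the chain from outside it passed the test in no case (0 called in each list, limma with Benjamini-Hochberg adjustment). Of 13 tested assembly and insertion factors outside the rule, 12 lay above 0 and 1 below (median 0.051), and 0 had an unadjusted p under 0.05. The 2 with the smallest p were Coa6, which acts in copper delivery to complex IV (0.26 ± 0.15), and Sdhaf1, an assembly factor of complex II (0.17 ± 0.11). The 18 tested genes of the pyruvate dehydrogenase and citric acid cycle list were split, 9 above 0 and 9 below (median -0.023). At an unadjusted limma p under 0.05, 1 was lower, against 2.36% of all tested probe sets. This was Fh1, fumarase, at 1234 ± 68.7 against 1387 ± 85.7 (SD, n = 5 each), a difference of -0.17 ± 0.077. Dld, shared by several dehydrogenases, gave -0.12 ± 0.082.

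Inner membrane carriers, porins and kinases (11 tested) had 5 above 0 and 6 below. In this list 1 gene was lower at an unadjusted limma p under 0.05, against 2.36% of all tested probe sets. It was the uncoupling protein family member Slc25a14 (-0.28 ± 0.12). The ADP/ATP carrier Slc25a5 gave 0.33 ± 0.16. Of 11 regulators of mitochondrial gene expression, 7 lay above 0 and 4 below and none had an unadjusted p under 0.05, with -0.11 ± 0.092 for the mitochondrial RNA polymerase Polrmt and 0.15 ± 0.13 for Gabpb1, a subunit of the NRF-2 factor. Protein import genes (18 tested) had 12 above 0 and 6 below, again none with an unadjusted p under 0.05. The import chaperones Timm13 and Timm9 stood at 0.24 ± 0.16 and -0.29 ± 0.18. Among 10 genes of redox defence 6 lay above 0 and 4 below. Of these, 1 was lower at an unadjusted limma p under 0.05 (background 2.36%). This was glutathione reductase, Gsr, at 636 ± 73.6 against 772 ± 58.2 (SD, n = 5 each), a difference of -0.28 ± 0.098. Txn2 gave -0.13 ± 0.094.

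The same fit gave larger differences elsewhere. All 10 tested activity-regulated genes lay below 0 (median -0.59, 10 with an unadjusted limma p under 0.05 and 0 after adjustment), among them Fos (2069 ± 424 against 3792 ± 629; -0.88 ± 0.15) and Dusp6 (1783 ± 121 against 2758 ± 350; -0.62 ± 0.094; SD, n = 5 each). This list was chosen with their values known and is no independent evidence of its direction. Over all tested probe sets 2.36% were lower at an unadjusted limma p under 0.05. The label of cortex was matched by neuronal markers, with 9 of 9 tested and summed signals of 38785 to 44734 in deprived and 39364 to 42497 in non-deprived arrays. Striated muscle genes, which could bring in muscle isoforms of complex IV, summed to 1924 to 2361 and 2017 to 2323. Of the 12 muscle genes 6 were tested, 3 above 0 and 3 below, 1 of the 12 was under the pseudocount, and Myh7 and Mylpf gave -0.11 ± 0.10 and 0.10 ± 0.13.

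Markers of other cells were read for the same reason. Astrocyte markers had 7 of 11 above 0, 3 of them higher at an unadjusted limma p under 0.05 (background 2.43%). These were Agt (0.99 ± 0.35), Slc4a4 (0.35 ± 0.13) and Slc1a2 (0.38 ± 0.14). Agt was dim and variable (188 ± 72.2 against 91.4 ± 62.3, SD, n = 5 each). The 4 below 0 were Glul (-0.16 ± 0.29), Aldoc (-0.12 ± 0.079), Cpe (-0.028 ± 0.084) and Aqp4 (-0.024 ± 0.18). Summed signals of the astrocyte markers were 46145 to 54870 in deprived and 46150 to 51211 in non-deprived arrays. Choroid plexus and meningeal genes had 5 of 6 above 0, with sums of 9576 to 16929 against 9025 to 12622. Igf2 was higher at an unadjusted limma p under 0.05 (0.30 ± 0.13), and Igfbp2 gave -0.18 ± 0.089. Ttr and Kl, choroid plexus markers of this list, were too dim to test (mean signals 65.8 against 66.8 and 30.2 against 22.1). Oligodendrocyte markers had 6 of 7 above 0 (Mag 0.29 ± 0.15, Pdgfra 0.22 ± 0.14), with sums of 21091 to 27911 against 18729 to 26997. Microglial markers had 7 of 9 above 0 (Cd53 0.29 ± 0.15, Laptm5 0.19 ± 0.11), with sums of 7291 to 7547 against 6565 to 7539. Endothelial markers had 4 of 10 above 0 (Cldn5 -0.19 ± 0.090, Slc2a1 -0.25 ± 0.12), with sums of 3724 to 4644 against 3925 to 4498. Erythrocyte genes had 3 of 3 above 0 (Hba-a1 0.19 ± 0.20, Alas2 0.090 ± 0.18), with sums of 3644 to 8052 against 3813 to 5160. Neuronal markers had 3 of 9 above 0, with Nefm lower at an unadjusted limma p under 0.05 (-0.23 ± 0.10, background 2.36%) and Neurod6 at 0.28 ± 0.24. The sums of the 2 groups overlapped for each of these lists, and their part in the chain genes' values was not tested.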

How the data were processed

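The deposited values are MAS5 signal intensities on a linear scale, 1 per probe set and array, made with MAS5 per the submitters' processing notes, with version and scaling target not given in the sources used here. Per the labels' protocols, about 10 µg of total RNA gave biotin-labelled cRNA. The intensities ran from 0 to 36786, and array medians from 191 to 209. Arrays of 1 group correlated at 0.957 to 0.979 across tested probe sets. Array number limits the precision.

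Of 12488 probe sets, 66 controls were left out. A platform annotation table gave 10833 of the rest 1 symbol, 396 several and 1193 none, and 10817 symbols were matched through Entrez IDs. The 11 chain probe sets with several symbols were left out, and 17 of the 68 tested genes rest on a probe set with a suffix of lower specificity. Chain genes without a probe set of 1 symbol, among them Uqcrfs1, Atp5b and Atp5g3, and the 13 mitochondrially encoded subunits were not analysed here.

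Signals were converted to log2(signal + 16), 16 being the 10th percentile of all values, a scale that understates changes of dim probe sets. Probe sets with a mean below the 40th percentile were left out. The test was limma 3.58.1 (R 4.3.3; lmFit, eBayes with intensity trend) on all 10 arrays, adjusted over 7453 probe sets, and tested on simulated data. Array measures were compared by exact permutation over 252 assignments, in which the smallest possible p is 0.00794; over the 4 measures the adjusted p was at least 0.54. Alternatives covered pseudocount, filter, normalization, replicate block, actin ratio, intensity trend, choice of probe set and leaving out each array.

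The members, lists and roles were chosen with earlier results of these data known. Named genes are, per complex (cytochrome c with complex III), the 4 with the smallest p, those with an unadjusted p under 0.05, catalytic or defining subunits, isoform sets and, from each list, the 2 with the smallest p. Other genes were named after their values were seen.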

Additional observations from a re-analysis of the deposited data

Results flagged for a closer look

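In the 35 named genes, each group's highest and lowest array was set against the other 4 with Dixon's test, 70 groups in all, of which chance alone passes about 5%. In 1 group an array stood apart: Cox6b1, a subunit of complex IV, had a signal of 343 in non-deprived replicate 5, where the nearest array of that group had 271. The gap was 0.795 of the group's range, above the critical value of 0.71. The Cox6b1 difference was 0.22 ± 0.13 with all arrays.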

How the results depend on the processing

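No chain gene passed the adjusted threshold under any of the 21 alternatives, with a smallest adjusted p of 0.757 among the named genes, in limma with the replicate block. Of all tested probe sets, 2 were called with a pseudocount of 64, 2 with the filter at the 60th percentile, 6 with the replicate block, 1 with the actin ratio as a covariate and 0 to 5 when single arrays were left out. Chain genes with an unadjusted p under 0.05 numbered 2 after quantile normalization (4.64% of all tested probe sets) and 0 after median scaling (4.95%). They numbered 0 with probe sets without a suffix (4.68%) and 2 with the mean of tested probe sets (4.82%). When single arrays were left out they numbered 0 to 4, and the share of all tested probe sets ran from 3.53% to 5.69%. Without deprived replicate 1 there were 4 of 68 (5.27% of all tested probe sets), and without deprived replicate 3 there were 3 (5.69%). Without non-deprived replicate 5 there were 2 (3.53%), and 0 without deprived replicate 4 or non-deprived replicate 2 or 4. The block rests on replicate numbers that the labels do not tie to animals. For a look at pairing, each probe set's group mean was subtracted from its log2 values. These residuals of same-numbered deprived and non-deprived arrays correlated at 0.14, 0.182, 0.222, 0.227 and 0.0222 for replicates 1 to 5. In 4 of the 5 deprived arrays the residuals correlated best with the non-deprived array of the same number, the exception being replicate 5. This is a hint from the data and not the design. The block left the chain median at 0.069.

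Of the 32 tested named genes, 21 kept their sign wherever their brightest probe set was tested. Genes whose brightest probe set carries a suffix were not followed in the fit without such probe sets. Means of probe sets were not followed gene by gene. Among the 21, Cox4i1, Cyc1 and Atp5d have other probe sets of the opposite sign, such as 0.13 ± 0.15 for Cox4i1 and 0.11 ± 0.12 for Cyc1. Median scaling moved the median over all tested probe sets to -0.027. It turned Atp5a1 to -0.021, Cox5b to -0.0064, Cox7a2 to -0.028, Sdhc to -0.028 and Uqcrc1 to -0.0042. Quantile normalization turned Atp5c1 to 0.0026 and Sdhc to -3.2e-05. Leaving out single arrays gave ranges of -0.023 to 0.039 for Atp5a1, -0.076 to 0.037 for Atp5c1, -0.047 to 0.095 for Cox5b, -0.035 to 0.17 for Cox6a1, -0.089 to 0.11 for Cox7a2, -0.11 to 0.0019 for Cox7a2l, -0.033 to 0.15 for Cox8b, -0.10 to 0.0060 for Sdhb, -0.048 to 0.057 for Sdhc, -0.097 to 0.077 for Sdhd and -0.067 to 0.11 for Uqcrc1. The cause was not tested. With 5 arrays a group the median SE was 0.133, so most differences of the size seen here were not detectable.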

Other observations

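Other promoter letters were counted in the same 62 chain genes and are descriptions only. The ETS core of NRF-2, CCGGAAG or CTTCCGG, was present in 19 (30.6%, against 17.1% of genes on the array), and the YY1 letters AAGATGGC or GCCATCTT in 9 (14.5%, against 4.61%). The GC box GGGCGG or CCGCCC was present in 31 (50%, against 63%). At least 1 of the NRF-1, ETS and YY1 letters was present in 32 genes and none of them in 30. The tested genes with the YY1 letters numbered 7, and their log2 differences, all above 0, ran from 0.030 to 0.26. Of the 45 tested genes without them, 32 also lay above 0, and the medians were 0.118 and 0.069. For the ETS core, 13 of 16 genes with it and 26 of 36 without it lay above 0. For the GC box these were 17 of 26 and 22 of 26, and for the NRF-1 core 7 of 11 and 32 of 41. These splits were not tested, and counts above 0 in the whole chain depended on single arrays.

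Probe sets of the same gene did not always point the same way. Of the 8 genes with several tested probe sets, the sign differed within 4: Atp5d, Cox4i1, Cyc1 and Ndufv2. For Ndufv2, a complex I core subunit, the brighter probe set gave -0.091 ± 0.13 and the dimmer 0.055 ± 0.10.

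Among the genes too dim to test, Ndufa1 had mean signals of 133 ± 62.5 in deprived and 89.4 ± 20.4 in non-deprived cortex (SD, n = 5 each). Ndufc2 had 100.2 ± 38.9 and 66.9 ± 25.9, and Cox6b2 109 ± 28.0 and 75.0 ± 39.8. The groups overlapped for these genes. Dimmer probe sets went the other way, with 17.6 and 22.5 for Ndufa1 and 40.2 and 70.4 for Cox6b2. Cox14 had 13.1 and 17.7, and Atp5j2 61.9 and 60.3.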
